A study of Mus musculus with 32 samples.

Results

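The genes described here mark the fibroblasts of the perivascular space and of the leptomeninges, and were followed in brain arteries of mice with an inactivated or a mutant Notch3. They were the rows of the read count table whose Ensembl identifier maps to the symbols Ptgds, Lum, Pdgfra, Slc6a13, Igfbp2, Aldh1a2, Crabp2, Slc47a1, Slc22a6, and Ogn, and all 10 were found, 1 row each, among 55357 genes. The rule for the rows used no measured value of single groups, although Ptgds was also picked as the gene with the most reads. The 10 genes were, however, chosen with earlier results of these data known. RNA sequencing covered 32 mice, 8 per group, with 1 library per mouse. Notch3-/- mice, which lack functional Notch3, and their Notch3+/+ littermates were 3 months old. TgNotch3R169C mice, a model of the inherited small vessel disease CADASIL that carries a rat Notch3 transgene with the Arg169Cys mutation on the X chromosome on top of the mouse gene, and their WT littermates were 12 months old. All lines had been backcrossed to C57BL/6, none of the mice was treated, both sexes were used in the study, and the labels do not give the sex of single mice. The WT group and the Notch3+/+ group belong to different lines, so age and line cannot be told apart between them.

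Fibroblasts surround the arteries and larger vessels of the brain surface and line the arachnoid and pia, where they lay down collagens and proteoglycans, supply retinoic acid and prostaglandin D2 synthase, and carry transporters that clear organic ions and amino acids from the cerebrospinal fluid. Dissected arteries of the brain surface carry these cells along with smooth muscle and endothelium. In bulk RNA, fewer fibroblasts and less RNA per fibroblast cannot be told apart.

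Total counts ranged from 20289487 to 54481934 per library (median 33013620.5). Notch3 itself was at 13.7 to 18.5 CPM in Notch3-/- mice against 65.8 to 98.1 CPM in Notch3+/+ mice, and at 108 to 219 CPM in TgNotch3R169C mice against 60.1 to 85.0 CPM in WT mice, and no library went against its label. CPM are counts per 1000000 after TMM normalization over the 32 libraries. A set of 7 libraries stood apart, with summed levels of 9 choroid plexus genes of 8997 to 25986 CPM against 234 to 670 CPM in the other 25. These choroid-rich mice were 1 Notch3-/- mouse (replicate 8), 2 TgNotch3R169C mice (replicates 5 and 8), and 4 WT mice (replicates 2, 4, 5, and 6), and none was Notch3+/+. One Notch3+/+ mouse (replicate 5) held 8908 CPM of 4 pituitary genes, against at most 781 CPM in the mice of the other groups. Results that rest on these mice are given below with and without the choroid-rich ones.

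Ptgds, which encodes the enzyme that makes prostaglandin D2 and is itself secreted into the cerebrospinal fluid, had the most counts of any gene in 32 of 32 libraries and took 3.22 to 5.14% of all counts. Divided by exon length, the mean level over the 32 mice was 26295 CPM per kb for Ptgds, 40.7 times the level of Igfbp2, the next gene, at 646 CPM per kb. Ogn followed at 386, Aldh1a2 at 313, Slc6a13 at 294, Slc22a6 at 143, Slc47a1 at 133, Crabp2 at 109, Lum at 58.4, and Pdgfra at 31.5 CPM per kb. Aldh1a2 lay above Slc6a13 in 22 of 32 mice and Slc22a6 above Slc47a1 in 21 of 32, so that neither pair was ordered beyond the spread between mice, whereas Ogn lay above Aldh1a2 in 31 mice and Slc47a1 above Crabp2 in 29. The other 5 neighboring pairs kept their order in all 32 mice. Exon lengths came from GENCODE vM21, which is of another genome build than the counts, so these levels per length are approximate.

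**Figure D1:**
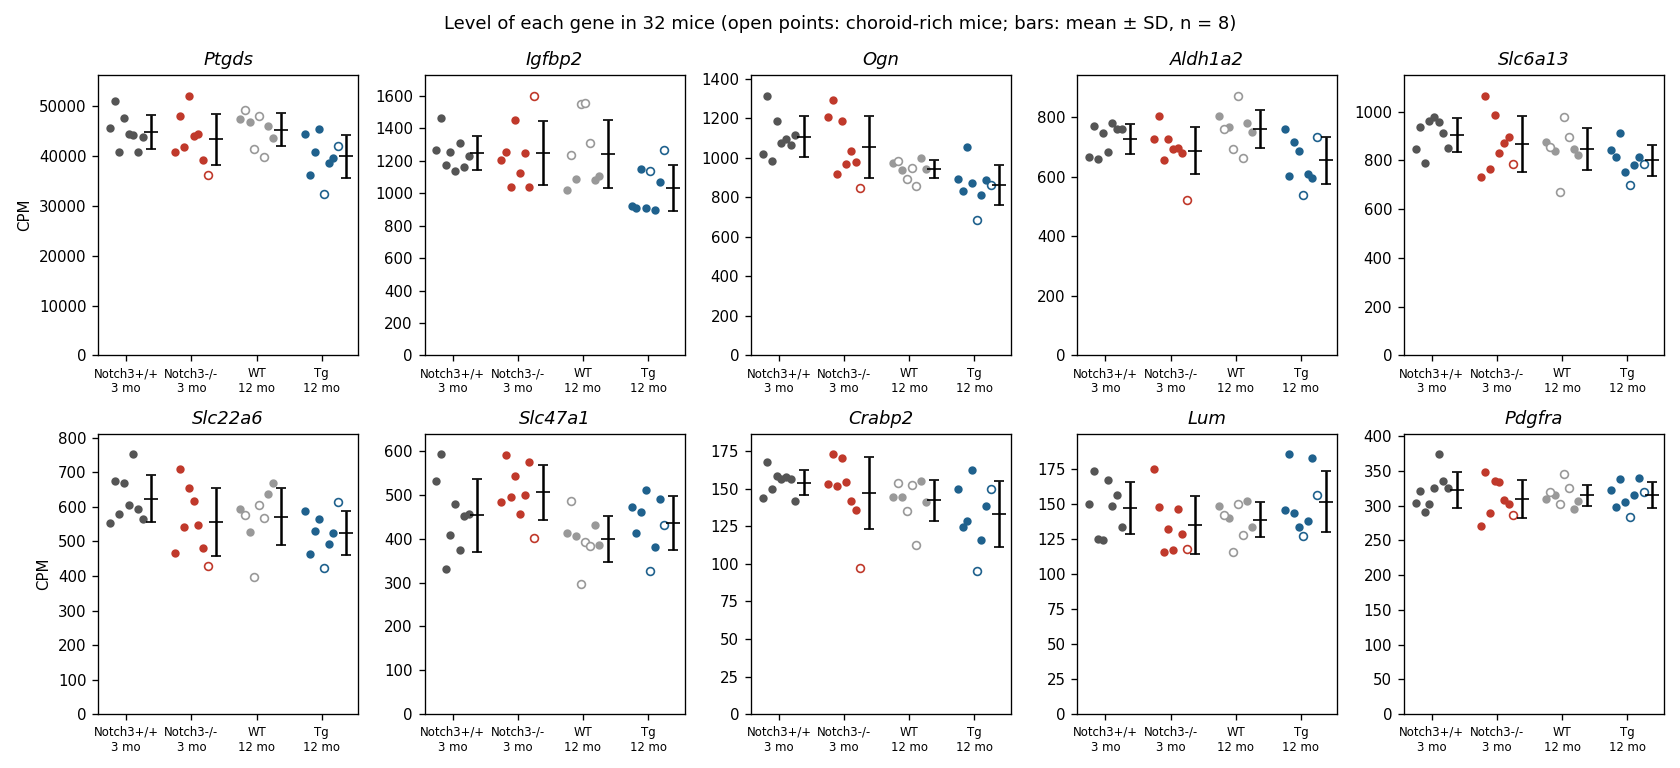
Level of each gene in CPM (vertical axes, from 0) in each mouse of the 4 groups, in order of level per kb. Points are mice, open points are the 7 choroid-rich mice, and bars give the mean ± SD of 8 mice. Among the 10 panels, no group lies clear of its comparison group, and in TgNotch3R169C mice 1 open point (replicate 5) is the lowest for 9 of the 10 genes. The share of all genes whose groups overlap was not computed, so the overlap describes these 10 genes only.

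Promoter sequences were available for 7 of the 10 genes in RefSeq (build GRCm38.p6), and 3 are shown: those of Ptgds and Igfbp2, the genes with the highest levels per kb, and that of Slc6a13, which shares a motif with Ptgds. Each is the 250 bases before the first listed transcription start, 5′ to 3′, and capitals mark matches on either strand to the motifs searched, which were the TATA box TATAAA, the similar TAAATA, the box CCAAT, the GC box GGGCGG, the AP-1 motif TGACTCA, and the E-box CACGTG. The Ptgds window is chr2:25469750-25469999 on the minus strand, the Slc6a13 window chr6:121300038-121300287 on the plus strand, and the Igfbp2 window chr1:72824230-72824479 on the plus strand.
Ptgds: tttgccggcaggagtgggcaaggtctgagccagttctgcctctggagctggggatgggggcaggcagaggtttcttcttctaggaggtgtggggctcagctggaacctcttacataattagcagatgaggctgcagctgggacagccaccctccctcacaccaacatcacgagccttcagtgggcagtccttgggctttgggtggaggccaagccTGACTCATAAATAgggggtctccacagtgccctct
Slc6a13: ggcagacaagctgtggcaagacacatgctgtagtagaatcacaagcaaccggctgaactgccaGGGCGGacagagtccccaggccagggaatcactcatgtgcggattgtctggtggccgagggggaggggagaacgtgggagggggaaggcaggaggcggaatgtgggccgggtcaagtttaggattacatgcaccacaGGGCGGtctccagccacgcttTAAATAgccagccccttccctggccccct
Igfbp2: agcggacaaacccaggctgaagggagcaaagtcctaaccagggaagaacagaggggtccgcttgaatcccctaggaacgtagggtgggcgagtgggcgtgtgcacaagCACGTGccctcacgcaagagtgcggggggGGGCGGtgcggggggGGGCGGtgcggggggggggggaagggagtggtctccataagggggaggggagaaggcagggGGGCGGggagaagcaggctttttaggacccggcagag
The Ptgds window holds the AP-1 motif TGACTCA from 35 to 29 bases before the start, followed without overlap by the TATA-like TAAATA from 28 to 23 bases before it. TAAATA lies at nearly the same place in Slc6a13, from 29 to 24 bases before the start, with 2 GC boxes (GGGCGG) upstream. The Igfbp2 window has 3 GC boxes and the E-box CACGTG. The other 5 windows, those of Igfbp2, Aldh1a2, Slc22a6, Ogn, and Pdgfra, hold no TAAATA. Of the 32851 mouse promoters in the table, 12.7% hold TAAATA, 4.46% TGACTCA, 32.7% GGGCGG, and 6.02% CACGTG. A match describes letters only.

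In Ptgds, levels ran from 40924 to 51036 CPM (median 44371) in Notch3+/+ mice and from 36263 to 52161 CPM (median 42963) in Notch3-/- mice. The groups overlapped, and the log2 fold change was −0.046 (95% CI −0.24 to 0.15, adjusted p = 0.974). At 12 months it ran from 39829 to 49244 CPM (median 46419) in WT mice and from 32351 to 45359 CPM (median 40248) in TgNotch3R169C mice. All 8 transgenic mice lay below the WT median and 4 below the lowest WT mouse, yet the log2 fold change of −0.18 (95% CI −0.41 to 0.045, adjusted p = 0.730) did not pass the test. Among the other prostanoid genes, 19 were tested, covering cyclooxygenases, synthases, and receptors, and none was called in either mutant. Ptger3, a receptor for prostaglandin E2, had the smallest p in Notch3-/- mice, with −0.40 (adjusted p = 0.146). It passed the test in 1 of 27 alternatives, the DESeq2 Wald test (adjusted p = 0.0414). Between WT mice at 12 months and Notch3+/+ mice at 3 months, the thromboxane receptor gene Tbxa2r was called lower, at −0.27 (SE 0.0772, adjusted p = 0.0436), a call lost in 19 of 27 alternatives, with −0.18 (adjusted p = 0.287) without the choroid-rich mice and adjusted p-values up to 0.346. Ptgds was at 0.013 (95% CI −0.13 to 0.16, adjusted p = 0.936) in that comparison.

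Aldh1a2 and Crabp2 belong to retinoic acid signaling, the first as the dehydrogenase that makes retinoic acid and the second as the protein that carries it to its nuclear receptors. Levels of Aldh1a2 ran from 658 to 780.2 CPM (median 753) in Notch3+/+ mice and from 523 to 803 CPM (median 695) in Notch3-/- mice, with a log2 change of −0.080 (95% CI −0.23 to 0.066, adjusted p = 0.890). In WT mice at 12 months they ran from 663 to 873 CPM (median 763), and in TgNotch3R169C mice from 538 to 759.5 CPM (median 647). All 8 transgenic mice lay below the WT median for Aldh1a2 and 4 below the WT range. The log2 fold change was −0.22 (95% CI −0.38 to −0.056, adjusted p = 0.605), with an unadjusted p of 0.0115, and it stayed between −0.25 and −0.14 under 27 alternatives without once passing the test. Crabp2 ran from 142 to 168 CPM (median 156) in Notch3+/+ mice and from 97.1 to 173 CPM (median 152) in Notch3-/- mice, with a log2 change of −0.065 (95% CI −0.25 to 0.12, adjusted p = 0.951). In WT mice it ran from 113 to 155 CPM (median 144) and in TgNotch3R169C mice from 95.4 to 163 CPM (median 133), with a log2 change of −0.10 (95% CI −0.30 to 0.11, adjusted p = 0.830). Groups overlapped for Crabp2 throughout. Of the other retinoid genes, 15 were tested in Notch3-/- mice and 16 in TgNotch3R169C mice, and none was called. Aldh1a1, a further enzyme of retinoic acid synthesis, had the smallest p in TgNotch3R169C mice, with −0.26 (adjusted p = 0.531). There were 3 genes called higher in WT mice at 12 months than in Notch3+/+ mice at 3 months. These were Stra6, a retinol uptake receptor, at 0.66 (SE 0.128, adjusted p = 0.00624), Rdh10, a retinol dehydrogenase, at 0.36 (SE 0.0797, adjusted p = 0.0134), and Aldh1a3, which also makes retinoic acid, at 0.48 (SE 0.136, adjusted p = 0.0414). Without the choroid-rich mice, Stra6 stayed called, at 0.69 (adjusted p = 0.0389), whereas Rdh10 was at 0.22 (adjusted p = 0.134) and Aldh1a3 at 0.52 (adjusted p = 0.142). The call of Aldh1a3 was lost in 16 of 27 alternatives, 12 of them the loss of 1 mouse, with log2 changes of 0.40 to 0.59.

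Lum and Ogn encode lumican and osteoglycin, small leucine-rich proteoglycans that bind collagen fibrils. For Lum, levels ran from 124 to 174 CPM (median 149) in Notch3+/+ mice and from 115 to 175 CPM (median 130.2) in Notch3-/- mice, with a log2 change of −0.12 (95% CI −0.32 to 0.069, adjusted p = 0.863). They ran from 115 to 152 CPM (median 141) in WT mice and from 127 to 185 CPM (median 144) in TgNotch3R169C mice, with a log2 change of 0.13 (95% CI −0.048 to 0.30, adjusted p = 0.748). For Lum, 3 transgenic mice lay above the WT range while 3 Notch3-/- mice lay below and 1 above the Notch3+/+ range, and the groups overlapped. Lum was the gene whose changes in the mutants were farthest apart on the positive side, with a difference of 0.26 (95% CI −0.0037 to 0.51, adjusted p = 0.589) on the log2 scale.

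Ogn ran from 984 to 1314 CPM (median 1085) in Notch3+/+ mice and from 847 to 1291 CPM (median 1005) in Notch3-/- mice, with a log2 change of −0.069 (95% CI −0.25 to 0.11, adjusted p = 0.943). In WT mice at 12 months it ran from 858 to 997 CPM (median 946), and in TgNotch3R169C mice from 683 to 1054 CPM (median 868), with a log2 change of −0.13 (95% CI −0.28 to 0.020, adjusted p = 0.718). The WT mice were the narrowest group and lay mostly below the Notch3+/+ range, with 6 of 8 below it and 8 of 8 below the Notch3+/+ median. Ogn was the only one of the 10 genes called in any comparison, lower in WT mice at 12 months than in Notch3+/+ mice at 3 months, at a log2 change of −0.24 (95% CI −0.35 to −0.12, adjusted p = 0.0143). Leaving out any single mouse kept the call. It was lost without the choroid-rich mice, at −0.20 (adjusted p = 0.130), with Ttr as a covariate, at −0.19 (adjusted p = 0.179), and with all 4 groups in one fit, at −0.23 (adjusted p = 0.0592). The other proteoglycans of the family gave 11 tested genes. Aspn and Omd, which lie beside Ogn on chromosome 13, were called lower in the same comparison, Aspn at −0.71 (SE 0.133, adjusted p = 0.00517) and Omd at −0.40 (SE 0.0780, adjusted p = 0.00652). Their neighbor Ecm2 was at −0.087 (adjusted p = 0.420). Without the choroid-rich mice, Aspn was at −0.60 (adjusted p = 0.0927) and Omd at −0.37 (adjusted p = 0.0739). Optc, an opticin gene at 0.823 to 3.24 CPM in the 3-month mice, was called lower in Notch3-/- mice, at −1.05 (SE 0.185, adjusted p = 0.00891), and in WT mice at 12 months, at −0.68 (SE 0.163, adjusted p = 0.0181). The former call was lost with the replicate block, at −1.05 (adjusted p = 0.0766), and the latter without the choroid-rich mice, at −0.61 (adjusted p = 0.162). Chad, which encodes chondroadherin, differed between the changes of the mutants, by 1.86 (SE 0.400, adjusted p = 0.0233), a difference that was 2.02 (adjusted p = 0.104) without the choroid-rich mice. It rested in part on TgNotch3R169C replicate 7, with 28.5 CPM against a group median of 6.95 CPM, and was 1.44 and still called without that mouse. The call was lost in 3 of 42 alternatives, and adjusted p-values reached at most 0.104. These were limma voom and the fits without the choroid-rich mice or without Notch3+/+ replicate 7. Bgn, the gene of biglycan, was at 0.35 (adjusted p = 0.0645) in TgNotch3R169C mice and passed the test in 6 of 27 alternatives.

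Pdgfra encodes the PDGF receptor α, which marks fibroblasts and, in brain tissue, oligodendrocyte precursors as well. It had the smallest spread of the 10 genes, with a within-group SD of 0.102 on the log2 scale. Levels ran from 291 to 374 CPM (median 323) in Notch3+/+ mice, from 271 to 348 CPM (median 306) in Notch3-/- mice, from 295 to 345 CPM (median 313) in WT mice, and from 284 to 339.8 CPM (median 318) in TgNotch3R169C mice. The 4 groups overlapped. Its log2 fold change was −0.056 (95% CI −0.18 to 0.065, adjusted p = 0.921) in Notch3-/- mice and 0.0030 (95% CI −0.089 to 0.095, adjusted p = 0.992) in TgNotch3R169C mice, an interval of 0.940 to 1.07 as a fold in the transgenic mice. Of the other PDGF ligands and receptors, 6 were tested and none was called in a mutant. Pdgfc, a ligand of the receptor, was called higher in WT mice at 12 months than in Notch3+/+ mice, at 0.46 (SE 0.128, adjusted p = 0.0378), and was at 0.21 (adjusted p = 0.411) without the choroid-rich mice. That call was lost in 12 of 27 alternatives, including the loss of Notch3+/+ replicate 6, 7, or 8 or of WT replicate 2, 4, 5, or 6, and its adjusted p reached 0.498. Summed levels of 5 other oligodendrocyte precursor genes had medians of 37.7 CPM in Notch3+/+, 38.6 CPM in Notch3-/-, 47.9 CPM in WT, and 49.2 CPM in TgNotch3R169C mice, and reached at most 109 CPM in any mouse. Exons of Pdgfra overlap the antisense gene model Gm42802, and whether the counting used strand is not given in the sources used here.

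Igfbp2 encodes a secreted protein that binds insulin-like growth factors, and epithelium of the choroid plexus makes it too. It ran from 1137 to 1466 CPM (median 1242) in Notch3+/+ mice and from 1038 to 1602 CPM (median 1225) in Notch3-/- mice, with a log2 change of −0.0032 (95% CI −0.18 to 0.18, adjusted p = 0.998). In WT mice it ran from 1022 to 1555 CPM (median 1169.7) and in TgNotch3R169C mice from 896 to 1269.9 CPM (median 998). For Igfbp2, 7 of 8 transgenic mice lay below the WT median and 4 below the WT range. The log2 fold change of −0.27 (95% CI −0.48 to −0.052, adjusted p = 0.627) was the largest of any of the 10 genes in a mutant, and its unadjusted p was 0.0180. Of the 8 WT mice, 4 were choroid-rich. Within the other mice, the mean was 976 CPM in 6 TgNotch3R169C mice and 1074 CPM in 4 WT mice, with a log2 change of −0.14 (adjusted p = 0.716). Of 14 other genes of the insulin-like growth factor system, Pappa2, a protease that cleaves binding proteins, was called lower in Notch3-/- mice, at −1.15 (SE 0.177, adjusted p = 0.00304). It ran from 2.25 to 3.66 CPM (median 2.85) in those mice and from 3.32 to 9.23 CPM (median 6.50) in Notch3+/+ mice. Pappa2 was also lower in WT mice at 12 months than in Notch3+/+ mice, at −1.17 (SE 0.190, adjusted p = 0.00197), and its changes in the mutants differed by 1.81 (SE 0.393, adjusted p = 0.0238), or 2.04 (adjusted p = 0.0969) without the choroid-rich mice. TgNotch3R169C replicate 7 had 14.7 CPM of Pappa2 against a group median of 3.08 CPM, and without it the difference was 1.26 and still called. The call was lost in 5 of 42 alternatives, and adjusted p-values reached at most 0.104. These were limma voom, the replicate block, Ttr as a covariate, and the fits without the choroid-rich mice or without Notch3+/+ replicate 7. In TgNotch3R169C mice none of these 14 genes was called, and 7 were higher and 7 lower. Igfbp5 had the smallest p there, at 0.32 (adjusted p = 0.315), and passed only with DESeq2 (adjusted p = 0.0414). Igfbp7 was next, at 0.17 (adjusted p = 0.417). Both encode further binding proteins and were higher, where Igfbp2 was lower.

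Slc6a13, Slc47a1, and Slc22a6 encode transporters of the meninges, for GABA and taurine, for organic cations, and for organic anions. Slc6a13 ran from 788 to 977 CPM (median 924) in Notch3+/+ mice and from 729.7 to 1065 CPM (median 852) in Notch3-/- mice, and from 668 to 979 CPM (median 851) in WT mice and from 699 to 914 CPM (median 799) in TgNotch3R169C mice. Its log2 fold change was −0.060 (95% CI −0.22 to 0.10, adjusted p = 0.943) in the former and −0.083 (95% CI −0.23 to 0.062, adjusted p = 0.796) in the latter mutant. Slc47a1, the most variable of the 10 genes with a within-group SD of 0.219, was the only one with a higher mean in Notch3-/- mice. It ran from 331 to 592 CPM (median 455) in Notch3+/+ mice and from 401 to 591 CPM (median 497) in Notch3-/- mice, with no Notch3-/- mouse outside the Notch3+/+ range, and the log2 fold change was 0.16 (95% CI −0.068 to 0.39, adjusted p = 0.836). In WT mice it ran from 297 to 486 CPM (median 399.6) and in TgNotch3R169C mice from 326 to 511 CPM (median 446), with a log2 change of 0.13 (95% CI −0.083 to 0.33, adjusted p = 0.781). For Slc22a6 the range was 554 to 752 CPM (median 599.8) in Notch3+/+ mice and 428 to 711 CPM (median 545) in Notch3-/- mice, with 5 Notch3-/- mice below the Notch3+/+ range and a log2 fold change of −0.16 (95% CI −0.37 to 0.043, adjusted p = 0.793). It was 396 to 670.2 CPM (median 585) in WT mice and 424 to 615 CPM (median 527) in TgNotch3R169C mice, with a log2 change of −0.12 (95% CI −0.33 to 0.081, adjusted p = 0.781). Of the other transporters of meninges and barrier, 13 were tested and none was called in a mutant. Abcg2, an efflux pump, and Slc26a7, an anion exchanger, were called lower in WT mice at 12 months, at −0.28 (SE 0.0666, adjusted p = 0.0188) and −0.39 (SE 0.0991, adjusted p = 0.0241). Neither passed without the choroid-rich mice, at −0.23 (adjusted p = 0.148) and −0.32 (adjusted p = 0.158). Slc26a7 also lost its call without Notch3+/+ replicate 2 or 7.

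Put together by comparison, 0 of the 10 genes were called in Notch3-/- mice, where 0.649% of 17714 genes were (0.198% higher and 0.452% lower). Their log2 fold changes lay between −0.16 (Slc22a6) and 0.16 (Slc47a1), with 9 lower and 1 higher and a median of −0.06 against −0.0011 over all genes tested. None had an unadjusted p under 0.05, against 7.69% of all genes, and DESeq2 called none either. In the same mice 6 of 7 smooth muscle genes were called lower, among them Myh11 at −1.04 (SE 0.130, adjusted p = 0.000395), while the calls of Acta2, Cnn1, and Tagln were lost without Notch3-/- replicate 7, that of Tagln in 7 of 27 alternatives in all.

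In TgNotch3R169C mice, 0 of the 10 genes were called, where 0.113% of 17731 genes were (0.102% higher and 0.0113% lower). Log2 fold changes lay between −0.27 (Igfbp2) and 0.13 (Lum), with 7 lower and 3 higher and a median of −0.11 against −0.0074 over all genes tested. An unadjusted p under 0.05 was found for 2 of them, Igfbp2 and Aldh1a2, against 7.27% of all genes. DESeq2 called none. Neuron genes had a positive log2 change in 7 of 7 cases, none of them called, and their sum was 314 to 948 CPM in TgNotch3R169C against 189 to 660 CPM in WT mice. The 6 astrocyte genes also had positive log2 changes, with sums of 2352 to 3047 CPM against 2056 to 2697 CPM. All 9 choroid plexus genes had negative ones, with a median of −1.05 and sums of 279.9 to 14696 CPM against 296 to 25986 CPM. So did all 7 smooth muscle genes, with a median of −0.25, 3 unadjusted p-values under 0.05, and sums of 1104 to 1716 CPM against 1319 to 2053 CPM. None of these genes was called. Fits were run with Ttr or the neuron genes as a covariate and without the choroid-rich mice. Beyond these, the part of such markers in the values of the 10 genes was not tested. The summed level of the 10 genes, most of it Ptgds, was 44860 ± 4584 CPM in TgNotch3R169C and 50675 ± 3514 CPM in WT mice (SD, n = 8). Without Ptgds, the other 9 genes summed to 4909.6 ± 391 and 5359.7 ± 293 CPM. At 3 months the Notch3-/- mice had a sum over the 10 genes of 48863 ± 5480.4 CPM, against 50507 ± 3678 CPM for their Notch3+/+ littermates.

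**Figure D2:**
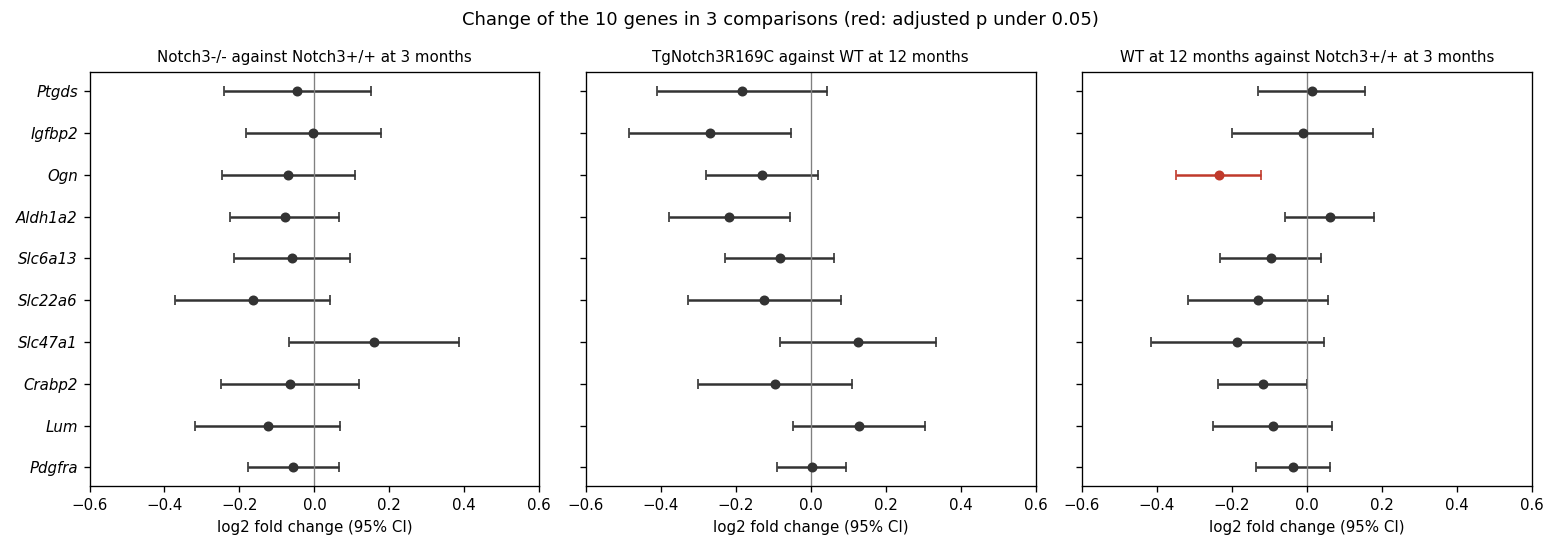
Log2 fold change (horizontal axis) with its 95% CI for each gene in 3 comparisons. Red marks an adjusted p under 0.05, which only Ogn reaches, in the comparison of the control groups at −0.24. In the middle panel, the intervals of Igfbp2 and Aldh1a2 lie below 0.

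The changes of the mutants were also compared with each other, as the change in TgNotch3R169C mice minus that in Notch3-/- mice. None of the 10 genes was called, where 0.35% of 18555 genes were (0.264% higher and 0.0862% lower). Differences lay between −0.26 (Igfbp2) and 0.26 (Lum), with a median of −0.03, and none had an unadjusted p under 0.05, against 8.62% of all genes. DESeq2 called 0 as well. The half-widths of the intervals ran from 0.147 for Pdgfra to 0.303 for Slc47a1.

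Among other markers of the same cells, 1 gene was called in a mutant. Of 13 further brain fibroblast genes, among them collagens, laminins, and Dcn, 0 were called in either mutant. Their median log2 fold change was −0.0094 in Notch3-/- mice and 0.019 in TgNotch3R169C mice. Of 12 genes of the arachnoid and leptomeninges, 0 were called in Notch3-/- mice and 1 in TgNotch3R169C mice, where 11 of the 12 were lower with a median of −0.09. The called gene was Itih2, which encodes a heavy chain of an inhibitor that binds hyaluronan. It ran from 348 to 451 CPM (median 409) in TgNotch3R169C mice and from 449 to 559 CPM (median 506) in WT mice. The highest transgenic mouse lay just above the lowest WT mouse, and the log2 fold change was −0.33 (SE 0.0602, adjusted p = 0.0388). The call was lost in 18 of 27 alternatives, 13 of them the loss of 1 mouse, including −0.35 (adjusted p = 0.139) without the choroid-rich mice, with log2 fold changes of −0.36 to −0.28. Wnt6, a Wnt ligand, came next, at −0.27 (adjusted p = 0.201).

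Between the control groups, 1 of the 10 genes was called lower and 0 higher, where 7.92% of 17643 genes were called, 4.05% lower and 3.87% higher. The log2 fold changes had a median of −0.09, against 0.0026 over all genes tested, and ranged from −0.24 (Ogn) to 0.06 (Aldh1a2). Crabp2 was next after Ogn by p, at −0.12 (95% CI −0.24 to 0.00056, adjusted p = 0.209), with all 8 WT mice below the Notch3+/+ median and 3 below its range. Igfbp2 was at −0.011 (95% CI −0.20 to 0.18, adjusted p = 0.958) and, without the choroid-rich mice, at −0.22 (adjusted p = 0.0881). Of the 13 further brain fibroblast genes, 5 were called lower and 0 higher in WT mice at 12 months, and over all 13, called or not, 7 had a negative and 6 a positive log2 change, with a median of −0.12. Col3a1 ran from 296 to 382 CPM (median 339.8) in them and from 471 to 688 CPM (median 569) in Notch3+/+ mice, without overlap, with a log2 change of −0.76 (SE 0.0784, adjusted p = 0.000109). Mmp2, a matrix metalloproteinase, did not overlap either, with 35.4 to 45.7 CPM (median 39.9) against 48.6 to 68.2 CPM (median 57.8), with a log2 change of −0.53 (SE 0.0692, adjusted p = 0.000448). Col1a2 was at −0.37 (SE 0.0517, adjusted p = 0.000710), Col1a1 at −0.41 (SE 0.0650, adjusted p = 0.00174), and Lamc3, a laminin gene, at −0.23 (SE 0.0643, adjusted p = 0.0396). Col3a1, Mmp2, Col1a2, and Col1a1 stayed called in all 27 alternatives. Lamc3 lost its call in 16 of the 27, 10 of them the loss of 1 mouse, with adjusted p-values up to 0.298, and was at −0.19 (adjusted p = 0.219) without the choroid-rich mice. Without those mice Col3a1 was at −0.79 (adjusted p = 0.00570) and Mmp2 at −0.62 (adjusted p = 0.00598). Dcn, which encodes decorin, was at 0.032 (adjusted p = 0.841). Of the 12 arachnoid and leptomeningeal genes, Gjb6, a connexin gene, was called lower, at −0.21 (SE 0.0469, adjusted p = 0.0134), and was at −0.21 (adjusted p = 0.0819) without the choroid-rich mice.

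Cell markers other than those of fibroblasts also moved between the control groups. Of 9 choroid plexus genes, 7 were called higher in WT mice at 12 months, with summed levels of 296 to 25986 CPM against 323 to 670 CPM in Notch3+/+ mice. Of 6 oligodendrocyte genes, 3 were called higher, at 1173 to 1803 CPM against 476 to 1524 CPM. All 7 smooth muscle genes were called lower, at 1319 to 2053 CPM against 2385 to 4287 CPM. None of these markers was at 0 in all mice. Choroid plexus RNA was taken into account only in the fits with Ttr, a choroid plexus gene, as a covariate and without the choroid-rich mice. Beyond these, the part of the markers in the lower Ogn and collagen levels was not tested.

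**Figure D3:**
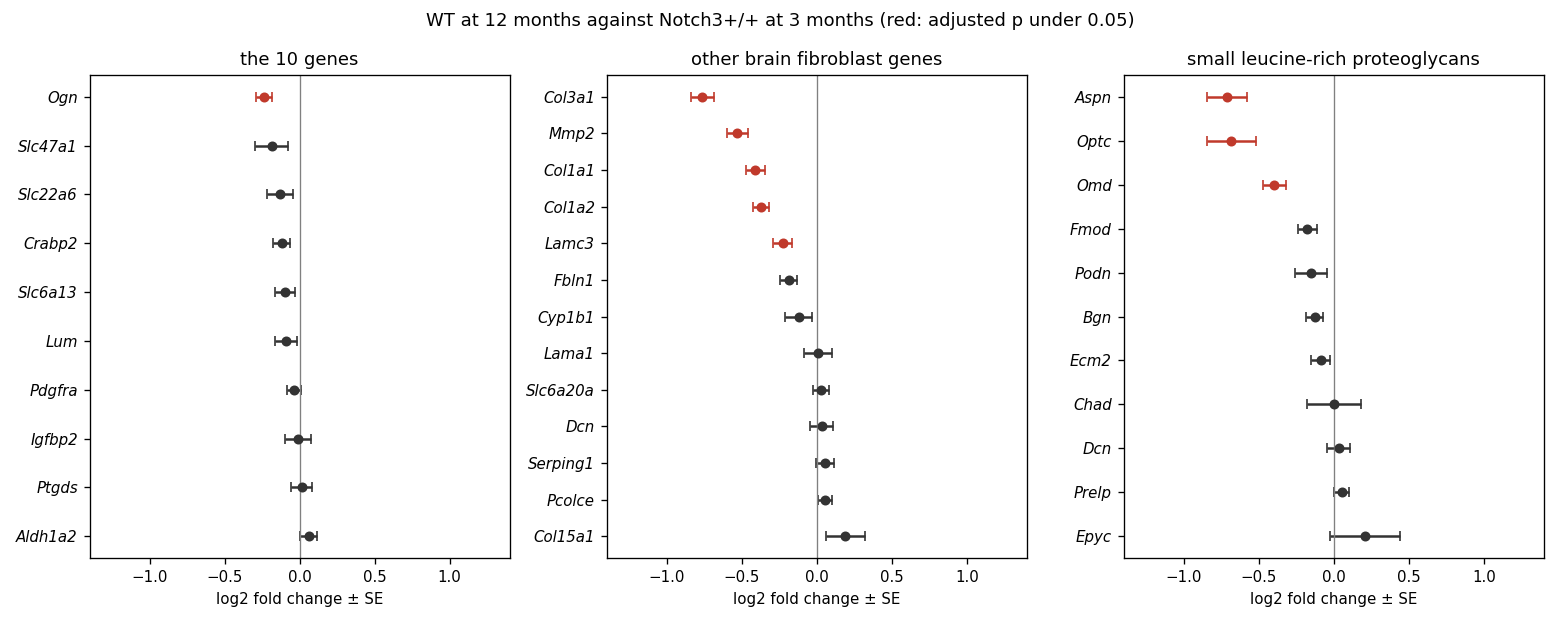
Log2 fold change ± SE in WT mice at 12 months against Notch3+/+ mice at 3 months for the 10 genes, the 13 other brain fibroblast genes, and the 11 other small leucine-rich proteoglycans. Red marks an adjusted p under 0.05: Ogn on the left, Col3a1, Mmp2, Col1a1, Col1a2, and Lamc3 in the middle, and Aspn, Optc, and Omd on the right.

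Correlations between the genes were taken across single mice. With group means removed, log2 CPM correlated positively in 39 of the 45 pairs (Pearson's r, 32 mice), with a median of 0.51 and a range of −0.21 to 0.84. In 26 pairs the adjusted p over the 45 was under 0.05 by a permutation test within groups (100000 permutations, two-sided), all of them positive, and 24 of these also by Spearman's rho. Ptgds and Crabp2 correlated most closely, with r = 0.84 and rho = 0.80 (permutation p = 1e-05, the smallest that the permutations can give, adjusted p = 0.000112), and r = 0.79 without the 2 mice farthest from the median. Aldh1a2 and Crabp2, the retinoic acid pair, came next, with r = 0.81 and rho = 0.71 (permutation p = 1e-05, adjusted p = 0.000112), and r = 0.67 without 2 mice. Pdgfra went most closely with Slc6a13, at r = 0.72 and rho = 0.67 (permutation p = 3e-05, adjusted p = 0.000225), and r = 0.71 without 2 mice. In 30 of the 45 pairs r was positive within each of the 4 groups. The mice share scaling to a library total and differ in RNA of other tissues, whose part in these correlations was not tested, and no share of correlated pairs among other genes was computed, so the count describes these 10 genes only.

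Igfbp2 stood apart. The 36 pairs among the other 9 genes were all positive, with a lowest r of 0.16, whereas 6 of the 9 pairs with Igfbp2 were negative and 0 had an adjusted p under 0.05. Among the 25 mice with low choroid plexus levels the picture differed. Igfbp2 correlated positively with each of the other 9 genes, most closely with Ogn (r = 0.75, rho = 0.68, permutation adjusted p = 0.00326) and Ptgds (r = 0.56, rho = 0.52, permutation adjusted p = 0.0460). Over all pairs in these 25 mice, 43 of 45 were positive, the median r was 0.42, and 14 pairs rather than 26 passed the test. Pairs with Lum ranged from −0.17 to 0.39 there, and 0 of them passed.

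**Figure D4:**
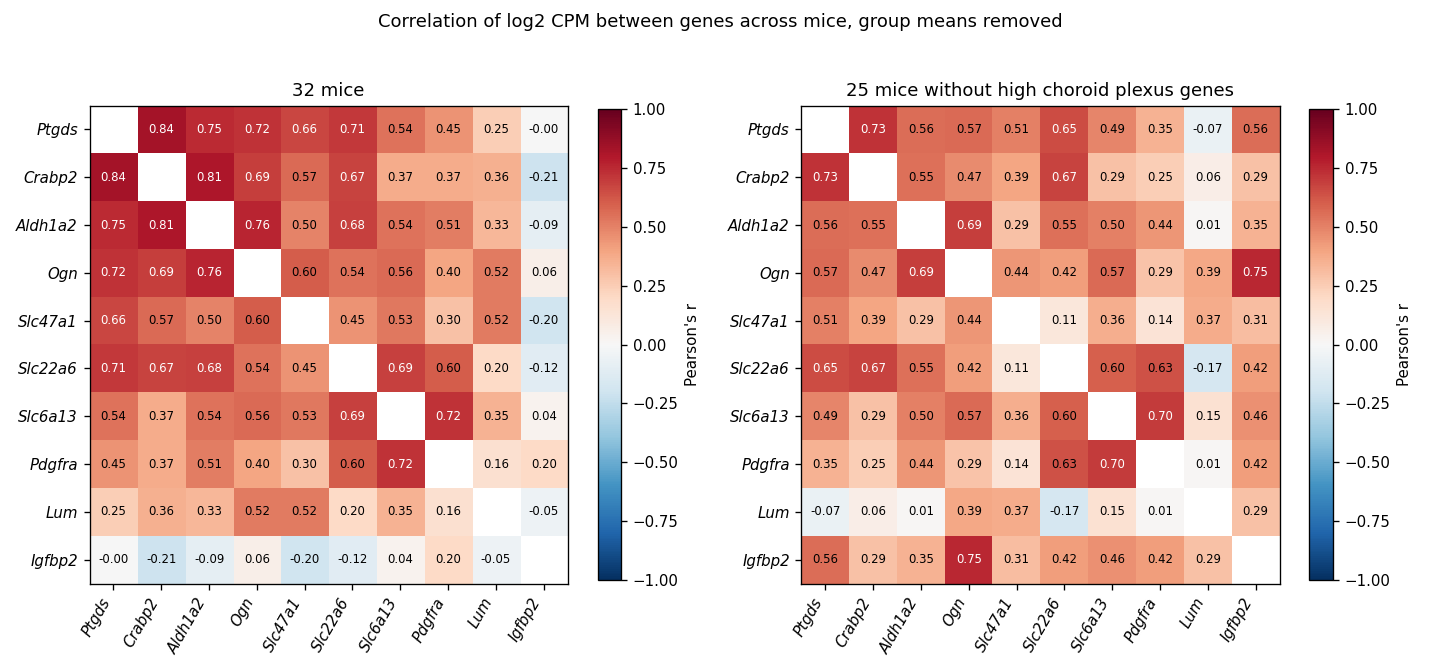
Pearson's r between log2 CPM of each pair of genes after removal of group means, over 32 mice (left) and over the 25 mice that were not choroid-rich (right). Red is positive and blue negative. The Igfbp2 row is pale or blue on the left and red on the right, where its r with Ogn is 0.75.

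Levels in the choroid-rich mice were as follows. In WT mice at 12 months, Igfbp2 averaged 1412 CPM in the 4 choroid-rich mice and 1074 CPM in the other 4, and each choroid-rich mouse lay above each of the others. The 1 choroid-rich Notch3-/- mouse had 1602 CPM against 1038 to 1455 CPM in the other 7. In TgNotch3R169C mice the 2 choroid-rich mice had 1139 and 1270 CPM against 896 to 1149 CPM in the other 6. For the other genes, choroid-rich mice lay at both ends of their groups. TgNotch3R169C replicate 5 was the lowest of its group for 9 of 10 genes, all but Igfbp2, and Notch3-/- replicate 8 for 6 of 10. Among WT mice, replicates 4 and 6 were lowest for 4 genes each. All 4 of these mice were choroid-rich. So were WT replicate 5, the highest of its group for 4 of the 10 genes, and WT replicate 2 and TgNotch3R169C replicate 8, each the highest for 2. Notch3+/+ replicate 3, lowest of its group for 6 genes, was not choroid-rich, and it held the most neuron RNA of its group, 898 CPM over 7 genes against a median of 259 CPM. TgNotch3R169C replicate 5 also held the most neuron RNA of its group, 948 CPM against a median of 520 CPM. Its oligodendrocyte precursor genes were the highest of its group too, at 109 CPM against a median of 49.2 CPM. Because the choroid plexus levels fall into separate clusters, no correlation over all 32 mice is given. Within the 25 mice of the lower cluster, none of the 10 genes correlated with the choroid plexus list after adjustment over the 10 relations. Slc6a13 came closest, with r = 0.45 and rho = 0.43 (permutation p = 0.00816, adjusted p = 0.0816), and r = 0.56 without 2 mice. Igfbp2 was at r = 0.13 and rho = 0.16 (permutation p = 0.475, adjusted p = 0.792), or r = 0.42 without 2 mice.

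**Figure D5:**
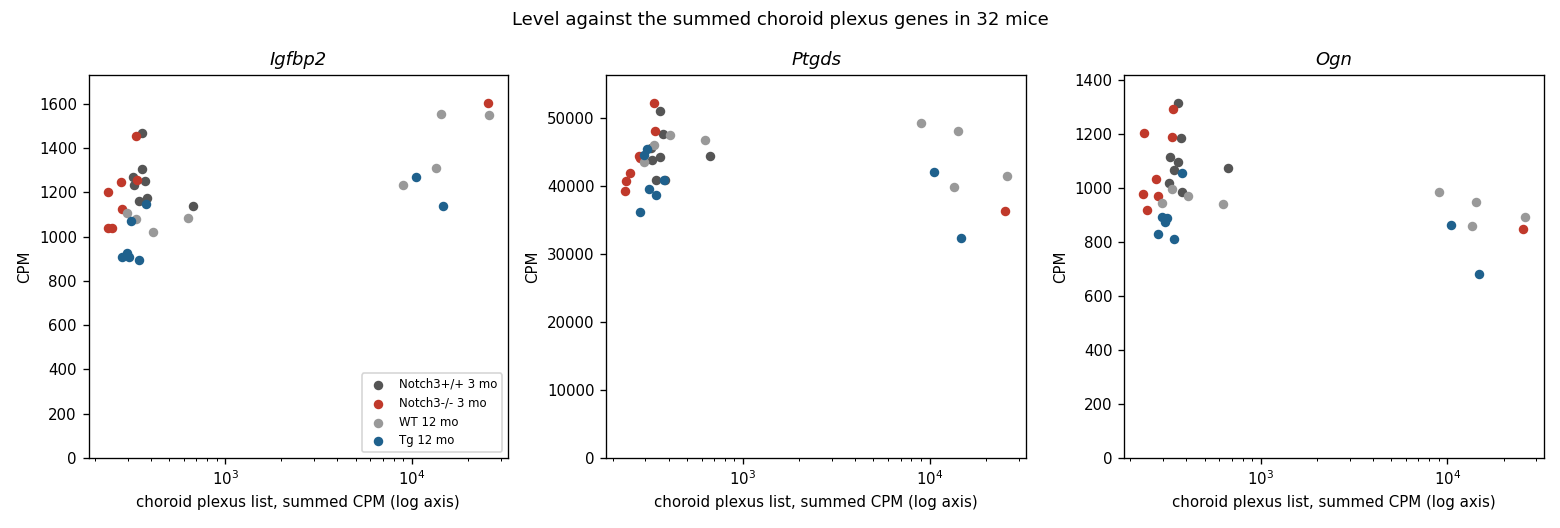
CPM of Igfbp2, Ptgds, and Ogn (vertical axes, from 0) against the summed CPM of 9 choroid plexus genes (horizontal log axis) in each mouse. The 7 mice on the right, from 8997 CPM upward, include the highest Igfbp2 value, 1602 CPM, and the lowest Ptgds value, 32351 CPM.

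The genes whose pattern was most like that of Ptgds across 32 mice, group means removed and the other 9 genes left out, were Foxd2 (r = 0.89, rho = 0.89), a forkhead transcription factor, Gstm2 (r = 0.87, rho = 0.84), a glutathione transferase, Atp1b3 (r = 0.86, rho = 0.85), a subunit of the sodium pump, Fbln1 (r = 0.84, rho = 0.78), a matrix glycoprotein, and Qprt (r = 0.84, rho = 0.80), an enzyme of NAD synthesis. Slc41a1, a magnesium transporter, and Laptm4a, a lysosomal membrane protein, each at r = 0.90, were most like the mean of the 10 genes, followed by Cmbl (r = 0.87), Itm2a (r = 0.86), and Gypc (r = 0.86). For lists, log2 CPM of each gene, group means removed, was divided by its SD and averaged over the list. This average followed the mean of the 10 genes at r = 0.90 (rho = 0.88) for the 12 arachnoid and leptomeningeal genes. It did so at r = 0.84 (rho = 0.77) for the 13 brain fibroblast genes and r = 0.43 (rho = 0.44) for the 7 smooth muscle genes. Single genes differed. With the arachnoid and leptomeningeal average, r was −0.07 (rho = 0.08) for Igfbp2, 0.33 for Lum, and highest, 0.87, for Aldh1a2. With the brain fibroblast average, r was 0.15 (rho = 0.32) for Igfbp2, 0.68 for Lum, and highest, 0.80, for Ogn. Lists of other cells followed the mean of the 10 genes too, at r = 0.58 (rho = 0.52) for macrophage, r = 0.48 (rho = 0.56) for pericyte, and r = 0.35 (rho = 0.35) for endothelium genes. Oligodendrocyte precursor genes ran against it, at r = −0.61 (rho = −0.68), and so did neuron genes, at r = −0.59 (rho = −0.62). These values share libraries, depth, and scaling to a total, and no test was made on them.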

How the data were processed

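RNA sequencing of brain arteries from 32 mice was used. Libraries were stranded and poly(A)-selected, from 150 ng total RNA with 13 PCR cycles. The authors deposited raw counts per Ensembl gene, without normalization. Per the labels, the processing notes list bcl2fastq 2.20.0.422, cutadapt 1.10, Bowtie2 2.2.8, STAR 2.5.3a, HTSeq 0.6.1p1, and mm39, with no roles given. The counting's strand setting and annotation release are not given in the sources used here. The study used DESeq2. Here edgeR 4.0.16 in R 4.3.3 (filterByExpr, TMM, quasi-likelihood test) was fitted to the 2 groups compared, over all genes passing the filter, with Benjamini-Hochberg adjustment and a threshold of 0.05. The difference between mutants was a contrast in a fit of 4 groups. CIs are at 95% and hold counting error and variation between mice. Replicates of a group differed by 10.9 to 147.9 times counting noise (chi-square per gene), so none was a duplicate. Symbols were matched for 52081 of 55357 genes. Correlations used log2 CPM and 100000 permutations within groups.

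The 10 genes and the companion lists were chosen with earlier results of these data known. All 10 are named. Genes of companion lists were named from the up to 4 with the smallest p among those called per list and comparison, or, where none was called, from the 2 with the smallest p. Genes most like Ptgds and like the mean of the 10 had to reach 1 CPM on average. Ecm2, Dcn, and Lamc3, and Wnt6 in TgNotch3R169C mice, were named after their values were seen. Alternatives were RLE size factors, DESeq2 1.42.0, limma 3.58.1 voom, other filters, scaling without Ptgds, all groups in one fit, a replicate block, Ttr or neuron covariates, and leaving out each mouse. Leaving out mice with over 1000 CPM of choroid plexus genes was chosen after seeing the data. Promoters came from RefSeq, GRCm38.p6.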

Additional observations from a re-analysis of the deposited data

Results flagged for a closer look

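One value stood far from the others of its group. Crabp2 in WT replicate 6 at 12 months was 113 CPM, with the next mouse at 135 CPM, and the gap took 0.536 of the group's range, more than Dixon's 95% critical value for 8 mice. In the 48 sets of 8 mice examined, chance gives about 2.4 such values, so 1 is no more than chance gives. The mouse was choroid-rich.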

How the results depend on the processing

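Of the values of the 10 genes under alternatives, all 270 in Notch3-/- mice, all 270 in TgNotch3R169C mice, and all 420 of the difference between mutants stayed on the same side of the threshold. Between the control groups 267 did and 3 lost the call, all of Ogn. The number of the 10 genes called there fell from 1 to 0 with all 4 groups in one fit, with Ttr as a covariate, and without the choroid-rich mice. It stayed at 1 when any mouse was left out, and it stayed at 0 in the other 3 comparisons under all alternatives run. The number of correlated pairs fell from 26 to 14 without the choroid-rich mice, where 25 mice remained, and was 26 with RLE and 29 without the 2 mice farthest from the median. With each mouse left out, the mean summed level of the 10 genes ranged from 49515 to 51151 CPM in Notch3+/+, 47507 to 49936 CPM in Notch3-/-, 50092 to 51475 CPM in WT, and 44089 to 46030.4 CPM in TgNotch3R169C mice.

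The number of all genes called moved more. It was 280 with DESeq2 and 174 with all groups in one fit against 115 in Notch3-/- mice. In TgNotch3R169C mice it was 74 with DESeq2, 8 with the neuron covariate, 7 with Ttr, and 2 without the choroid-rich mice, against 20. Leaving out WT replicate 3 or 4 gave 11, TgNotch3R169C replicate 1 gave 12, and WT replicate 7 gave 13. Between the control groups it was 2365 with DESeq2, 246 with Ttr, and 402 without the choroid-rich mice, against 1398, and 895 without Notch3+/+ replicate 7. For the difference between mutants it was 153 with DESeq2 and 39 without the choroid-rich mice, against 65. Where mice are left out, fewer samples enter the fit, and the cause of the other shifts was not tested.

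The labels do not say whether replicate numbers pair the mice, and the correlations of same-numbered mice do not settle it. They were above 0.1 in 4 of 8, 4 of 8, and 3 of 8 pairs in the 3 comparisons of 2 groups. The last of these sets control mice of different lines and ages together. Same-numbered mice there cannot be littermates, so its values and its block fit do not bear on such pairing. The same-numbered mouse was the best match in 3, 1, and 2 of the 8 cases. With the replicate number as a block, 0, 0, and 1 of the 10 genes were called in the 3 comparisons of 2 groups, and all genes called fell to 6 in TgNotch3R169C mice and to 715 between the control groups. With 8 mice per group, the half-width of the interval for the difference between mutants reached 0.303 on the log2 scale, for Slc47a1.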
